A study of Homo sapiens with 36 samples.

Results

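UHRF1 and DNMT1 act in the same maintenance pathway, and the comparison described here asks how far apart the transcriptomes of cells that lost one or the other stood after 8 days. Its members were the 3 libraries of UHRF1-AID cells and the 3 libraries of DNMT1-AID cells taken on day 8, 6 of the 36 RNA-seq libraries of the series, and they were chosen by line and day alone. All lines derive from HCT116, a human colorectal cancer cell line, and all, WT included, carry the plant ubiquitin ligase subunit OsTIR1 under a doxycycline-inducible promoter. In UHRF1-AID cells UHRF1, and in DNMT1-AID cells DNMT1, bears a mini auxin-inducible degron (AID) tag, so that OsTIR1 directs the tagged protein to the proteasome once auxin is present. Each line received 2 µg/mL doxycycline (Dox) with 20 µM of the OsTIR1 inhibitor auxinole for 1 day, after which the same Dox dose was combined with auxin at 500 µM (Dox/Auxin) for the stated time. WT cells on the same regimen are given as the background, and days 2 and 6 and UHRF1-AID/DNMT1-AID cells, which lose both proteins, appear where they bear on the comparison. Untreated cells (day 0) and day 4 were not analysed here, so a difference that the lines carried before Dox/Auxin cannot be told apart from one that followed protein loss. By the methods the libraries are biological replicates and AID lines generally comprise separate clones, but no label ties a library to a clone. The p-values measure only the spread between libraries within groups, estimated from all 36 libraries unless a fit of fewer is named.

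Cytosine methylation at CpG dinucleotides is copied onto the new DNA strand after replication. UHRF1 recognises hemimethylated CpGs and modified histone H3, ubiquitylates histone H3 and PAF15, and thereby recruits DNMT1, the methyltransferase that restores the mark. Germline genes such as the MAGE and CTAG families are classic targets of promoter methylation in somatic cells. In tumour cells, drugs that block methylation are known to activate these genes and the interferon response.

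Library totals on day 8 were 30590161, 30470874 and 33116277 counted reads in UHRF1-AID and 37175136, 27624814 and 23709049 in DNMT1-AID. Levels are given as CPM, gene counts relative to the TMM-scaled total of protein-coding counts in the same library, for libraries 1, 2 and 3 in that order. A log2 difference is UHRF1-AID minus DNMT1-AID with its standard error (SE), and an adjusted p comes from edgeR's quasi-likelihood test with Benjamini-Hochberg adjustment over all 15415 genes tested. Within a gene list, a gene rose or fell when its adjusted p was under 0.05. A gene was called higher or lower when it also differed by over 2-fold. Reads from mitochondrial protein genes took from 4.15% to 6.46% of counts in UHRF1-AID, from 4.15% to 7.0% in DNMT1-AID and from 2.52% to 3.33% in WT. Summed markers of a colon epithelial line reached 5828 to 7013 CPM in UHRF1-AID, 9255 to 10750 CPM in DNMT1-AID and 5785 to 5878 CPM in WT. The leukocyte, endothelial and fibroblast markers PTPRC, CDH5 and PDGFRA had at most 0.514, 0.177 and 0 CPM in any of these libraries. Summed endothelial markers were 1.39 to 2.97 CPM in UHRF1-AID, 0.865 to 1.33 CPM in DNMT1-AID and 0.641 to 1.35 CPM in WT. Among them, PECAM1 had 0.846 to 1.49 CPM in UHRF1-AID, 0.153 to 0.813 CPM in DNMT1-AID and at most 0.045 CPM in WT. Summed leukocyte markers were 9.53 to 15.5 CPM in UHRF1-AID, 18.9 to 26.8 CPM in DNMT1-AID and 26.7 to 37.6 CPM in WT, most of it CD68, a lysosomal protein.

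The degron acts on protein, so the mRNA does not check depletion, but both transcripts were measured. UHRF1 mRNA stood at 139, 87.4 and 131 CPM in UHRF1-AID, 119.7, 119 and 124 CPM in DNMT1-AID and 148, 151 and 147 CPM in WT. The libraries of both degron lines overlapped, with a log2 difference of -0.02 ± 0.25 (adjusted p = 0.962). DNMT1 mRNA stood at 169, 121 and 163 CPM in UHRF1-AID, 70.1, 59.1 and 62.8 CPM in DNMT1-AID and 191, 210.1 and 195 CPM in WT. Every UHRF1-AID library was therefore above every DNMT1-AID library for DNMT1, and the difference was 1.24 ± 0.21 (adjusted p = 0.000182). It was already 1.00 ± 0.23 on day 2 and was 1.36 ± 0.21 on day 6.

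On day 8, 505 genes (3.28% of those tested) were higher in UHRF1-AID and 106 (0.688%) were lower. The 505 genes were mostly weakly expressed: their median level was 1.46 CPM in UHRF1-AID, 0.377 CPM in DNMT1-AID and 0.0602 CPM in WT. The 106 genes had medians of 2.24 CPM in UHRF1-AID, 6.00 CPM in DNMT1-AID and 2.38 CPM in WT. Hence the median of the first set was close to silence in WT. The median of the second set in UHRF1-AID was near that in WT, and in DNMT1-AID it was above that in WT. Such medians do not place single genes against their own WT level. At any fold, 1545 genes rose (10.0%) and 1270 fell (8.24%), and the median log2 difference over all genes was 0.02. The 3 libraries of one line lay wholly on one side of the other's in 470 of the 505 and 94 of the 106 genes. The share was 30.34% of all genes tested. Genes named for the 15 highest or 12 lowest differences were chosen among those without overlap, so their separation is no further result. With only these 6 libraries in the fit, 256 genes were called higher and 67 lower, and without replicate 3 of UHRF1-AID 70 were called lower.

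**Figure D1:**
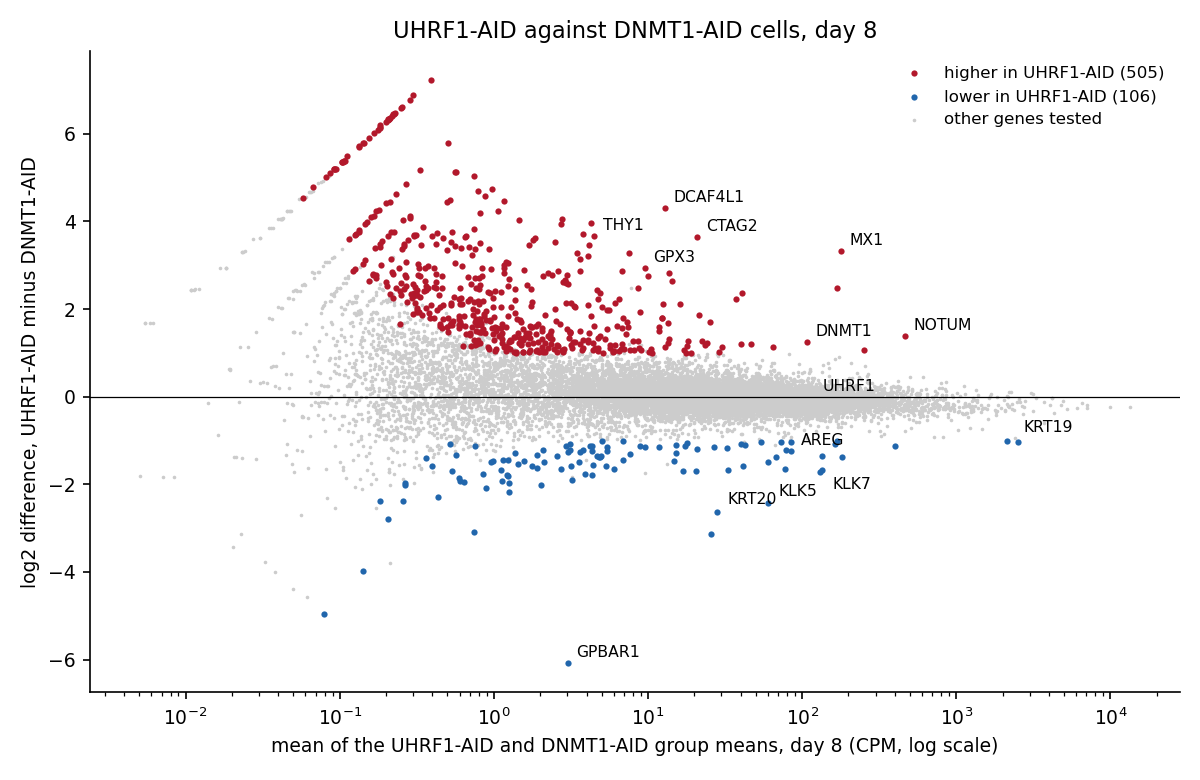
Log2 difference on day 8, UHRF1-AID minus DNMT1-AID, of each of the 15415 genes against the mean of both group means (CPM, log scale). Red points are the 505 genes called higher in UHRF1-AID, many of them at low levels, blue points the 106 called lower, and grey points the other genes.

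Germline antigens were higher in UHRF1-AID. Of the 12 MAGEA genes, antigens of testis and tumour cells on chromosome X, all were tested, 8 rose and 0 fell, with a median log2 difference of 1.21. Of 41 other cancer-testis antigens tested, 18 rose and 2 fell, with a median of 0.81. Of all genes tested, 10.0% rose and 8.24% fell. In bulk libraries, more RNA in each cell and more cells that express a gene cannot be told apart.

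The promoters of 2 of these genes are shown because both genes were silent in WT and differ in CpG content. Each is 300 bases of RefSeq sequence on GRCh38.p14, 5′ to 3′, from 250 bases before to 50 bases after an annotated start, with CpGs in capitals. The window of MAGEA11 (chromosome X, 149711810 to 149712109, plus strand) holds 21 CpGs, and that of PAGE5 (chromosome X, 55220096 to 55220395, plus strand) holds 10. Over the 16 windows of the 10 MAGEA genes that matched the table, the median was 14 CpGs, against 24 over the 17318 windows of the genes tested that matched (77.41% of genes).
MAGEA11: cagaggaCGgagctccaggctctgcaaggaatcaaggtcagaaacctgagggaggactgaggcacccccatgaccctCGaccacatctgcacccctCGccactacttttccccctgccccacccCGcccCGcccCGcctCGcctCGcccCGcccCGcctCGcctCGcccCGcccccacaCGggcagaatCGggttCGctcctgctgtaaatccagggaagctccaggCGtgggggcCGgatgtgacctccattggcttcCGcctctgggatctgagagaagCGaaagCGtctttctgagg
PAGE5: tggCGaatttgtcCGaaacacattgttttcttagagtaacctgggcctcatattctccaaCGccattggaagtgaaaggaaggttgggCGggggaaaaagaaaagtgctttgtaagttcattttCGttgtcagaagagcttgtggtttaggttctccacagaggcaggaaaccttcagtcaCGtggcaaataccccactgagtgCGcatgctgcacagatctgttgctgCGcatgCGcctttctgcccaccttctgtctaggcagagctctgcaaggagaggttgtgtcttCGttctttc

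CTAG2 (ENSG00000126890.14, chromosome X, 154651972 to 154653579), a homologue of the tumour antigen NY-ESO-1, had 29.5, 43.5 and 43.0 CPM in UHRF1-AID, 2.28, 4.32 and 2.80 CPM in DNMT1-AID and 0 in every WT library. The lowest UHRF1-AID library was above the highest of DNMT1-AID, and the log2 difference was 3.64 ± 0.30 (adjusted p = 3.6e-08). CTAG1A, which encodes NY-ESO-1, had 4.42, 10.4 and 6.34 CPM in UHRF1-AID and 0.364, 0.556 and 0.763 CPM in DNMT1-AID, a log2 difference of 3.71 ± 0.42 (adjusted p = 3.05e-07). Its near-identical copy CTAG1B gave 3.47 ± 0.42, and reads cannot be assigned between both with certainty.

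MAGEA1, the founding member of the family, had 21.4, 28.3 and 24.3 CPM in UHRF1-AID, 3.52, 5.87 and 2.49 CPM in DNMT1-AID and 0 in WT, a log2 difference of 2.63 ± 0.27 (adjusted p = 3.02e-07). MAGEA11, a coactivator of the androgen receptor, had 16.9, 23.8 and 21.3 CPM in UHRF1-AID, 6.10, 6.98 and 6.21 CPM in DNMT1-AID and 0 in WT, a log2 difference of 1.68 ± 0.16 (adjusted p = 3.77e-08). In both genes the groups did not overlap, and replicates lay close together. MAGEA10 was far more variable, with 6.87, 19.4 and 9.47 CPM in UHRF1-AID and 1.70, 2.48 and 0.560 CPM in DNMT1-AID, a log2 difference of 2.88 ± 0.72 (adjusted p = 0.00951). MAGEA4 also varied, with 142, 401 and 308 CPM in UHRF1-AID and 41.2, 70.5 and 40.3 CPM in DNMT1-AID, a log2 difference of 2.49 ± 0.66 (adjusted p = 0.011). The nearly identical pair MAGEA9 and MAGEA9B each gave 1.21 ± 0.14, and MAGEA6 and MAGEA12 also rose, by 0.98 ± 0.16 and 1.5 ± 0.21.

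PAGE5, a prostate-associated member of the GAGE superfamily, had 3.36, 6.49 and 4.00 CPM in UHRF1-AID, 0.334, 0.599 and 0.254 CPM in DNMT1-AID and 0 in WT, a log2 difference of 3.52 ± 0.37 (adjusted p = 1.68e-07). The 2 cancer-testis genes that fell were CSAG3, at -0.50 ± 0.14, and TKTL1, a transketolase-like gene. TKTL1 stood at 5.91, 7.01 and 3.77 CPM in UHRF1-AID and 11.3, 14 and 11.1 CPM in DNMT1-AID, a log2 difference of -1.13 ± 0.38 (adjusted p = 0.0393). Neither call held throughout: that of TKTL1 was lost without replicate 1 or 3 of UHRF1-AID or without any 1 DNMT1-AID library, with an adjusted p of up to 0.168, and that of CSAG3 without replicate 1 or 3 of UHRF1-AID or replicate 2 or 3 of DNMT1-AID, and with the 6 libraries alone (adjusted p = 0.0688). Among 37 tested genes of meiosis and the piRNA pathway, 5 rose (13.51%) and 1 fell (2.7%), against 10.0% and 8.24% of all genes. With only the 6 libraries in the fit 0 rose, but DMRT1 and DPPA5, which are among the 5, were not tested there. DMRT1, a transcription factor of the testis, had 49 reads over the UHRF1-AID libraries and 0 over those of DNMT1-AID, at least 14.4-fold higher against a floor of 3 reads over the group. DPPA5, a marker of pluripotent cells, had 24 reads and 0, at least 7.05-fold higher against the same floor.

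Interferon-stimulated genes did not share this pattern on day 8. Of 56 tested, 1 rose and 0 fell, and the median log2 difference was 0.03. Without replicate 1 of UHRF1-AID 2 rose, and without replicate 2 of UHRF1-AID 1 fell. The list stood above WT in both lines, with medians of 0.93 in UHRF1-AID and 0.84 in DNMT1-AID, which share the WT libraries. The exception was MX1 (ENSG00000157601.15, chromosome 21, 41420020 to 41470071), a dynamin-like GTPase that blocks viral replication, with 252, 454 and 274 CPM in UHRF1-AID, 31.2, 35.5 and 31.2 CPM in DNMT1-AID and 4.53, 4.90 and 4.93 CPM in WT. Its groups did not overlap, and the difference was 3.32 ± 0.32 (adjusted p = 1.14e-07). It was 0.85 ± 0.56 on day 2 and 3.03 ± 0.31 on day 6. For the whole list the median was -0.47 on day 2 and -0.10 on day 6, against -0.03 and -0.005 over all genes. In 7 of the 56 genes the difference was more positive on day 8 than on day 2 at an adjusted p under 0.05. It was more negative in 0. As the list median moved from -0.47 to 0.03, a more positive difference is not always a wider gap. Of all 15415 genes tested, 859 had a more positive and 326 a more negative difference.

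On day 8 the 55 members other than MX1 ranged from -0.57 to 0.90, with a smallest adjusted p of 0.0806. Of these, 3 had an unadjusted p under 0.05 in the same edgeR fit. ISG15, a ubiquitin-like protein that is conjugated to targets in infected cells, had 2105, 3094 and 2221 CPM in UHRF1-AID, 2571, 3200 and 2864 CPM in DNMT1-AID and 1167, 1120 and 1159 CPM in WT, a log2 difference of -0.22 ± 0.22 (adjusted p = 0.53). IFIT1, which binds viral RNA caps, had 472, 827 and 481 CPM in UHRF1-AID and 551, 577 and 570.3 CPM in DNMT1-AID, a log2 difference of 0.07 ± 0.30 (adjusted p = 0.903). MX2, the paralogue of MX1, had 13.1, 34.1 and 13.7 CPM in UHRF1-AID and 13.2, 16.3 and 14.3 CPM in DNMT1-AID, a log2 difference of 0.47 ± 0.33 (adjusted p = 0.332). In each of these 3 genes the libraries of both lines overlapped. Of 20 sensors of cytosolic nucleic acids tested, 0 rose and 0 fell in edgeR and in DESeq2, and 0 had an unadjusted p under 0.05. Of 20 subunits and feedback genes of NF-kappa B, 0 rose and 0 fell in edgeR and in DESeq2, with 3 positive at an unadjusted p under 0.05, while 1 rose and 1 fell without replicate 1 of DNMT1-AID and 1 rose without replicate 2 of UHRF1-AID.

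Promoters of MX1 (chromosome 21, 41420308 to 41420607, plus strand) and ISG15 (chromosome 1, 1013247 to 1013546, plus strand) are shown side by side because MX1 differed between the lines and ISG15 did not pass the test. Both hold the core of the interferon-stimulated response element, searched as GAAANNGAA on both strands with overlapping matches kept and given in capitals, and each window holds 20 CpGs. The motif occurs in 6.56% of the 17318 windows of the genes tested, and 1 of the other 2 MX1 windows in the table also holds it.
MX1: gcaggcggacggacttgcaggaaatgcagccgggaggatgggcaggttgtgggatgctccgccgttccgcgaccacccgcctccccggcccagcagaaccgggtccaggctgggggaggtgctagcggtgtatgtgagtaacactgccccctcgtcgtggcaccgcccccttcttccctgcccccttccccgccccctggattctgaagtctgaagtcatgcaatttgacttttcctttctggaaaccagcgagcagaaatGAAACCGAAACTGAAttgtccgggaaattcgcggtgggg
ISG15: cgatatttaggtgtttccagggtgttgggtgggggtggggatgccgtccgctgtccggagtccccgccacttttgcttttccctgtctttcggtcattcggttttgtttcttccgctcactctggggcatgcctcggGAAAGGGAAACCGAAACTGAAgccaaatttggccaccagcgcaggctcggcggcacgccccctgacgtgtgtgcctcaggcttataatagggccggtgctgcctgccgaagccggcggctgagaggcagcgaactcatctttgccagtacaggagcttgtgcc

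Of 20 MHC class I genes tested, 0 rose and 4 fell (20.0%, against 8.24% of all genes), with a median of -0.14. PSMB10, an inducible subunit of the immunoproteasome, was lowest at -0.74 ± 0.11 (adjusted p = 1.3e-05) and PSME2, a subunit of the proteasome activator, gave -0.39 ± 0.08. The count was 2 without replicate 1 or 3 of UHRF1-AID or replicate 2 or 3 of DNMT1-AID, and 6 without replicate 2 of UHRF1-AID. Of 38 secreted factors and receptors of the senescence-associated secretory phenotype, 8 rose (21.05%) and 4 fell (10.53%). Of all genes tested, 10.0% rose and 8.24% fell, and the median of the list was -0.08. ICAM1, an adhesion molecule for leukocytes, had 13.8, 12.7 and 15.8 CPM in UHRF1-AID and 2.76, 3.81 and 4.68 CPM in DNMT1-AID, a log2 difference of 1.94 ± 0.22 (adjusted p = 1.53e-07). MMP1, an interstitial collagenase, had 21.3, 5.87 and 13.6 CPM in UHRF1-AID and 1.79, 0.985 and 1.32 CPM in DNMT1-AID, a log2 difference of 3.29 ± 0.44 (adjusted p = 4.67e-06). IGFBP4, a binding protein of insulin-like growth factors, had 8.21, 4.29 and 11.3 CPM in UHRF1-AID, 0.182, 0.514 and 0.967 CPM in DNMT1-AID and 0 in WT, a log2 difference of 3.95 ± 0.52 (adjusted p = 1.4e-05). The groups did not overlap in these 3 genes. Of the 4 members that fell, 1 did so without replicate 3 of UHRF1-AID or replicate 2 of DNMT1-AID and 2 without replicate 1 of UHRF1-AID, and with library size only, as without replicate 2 of UHRF1-AID, the median of the list was 0.02.

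Among higher genes with a mean of at least 5 CPM in UHRF1-AID, the largest difference was that of DCAF4L1 (ENSG00000182308.7, chromosome 4, 41981756 to 41986465), a DCAF4-like gene, with 21.5, 26.6 and 25.3 CPM in UHRF1-AID, 1.00, 1.5 and 1.27 CPM in DNMT1-AID and 0.0915, 0.180 and 0.0337 CPM in WT. The groups were far apart, with a log2 difference of 4.30 ± 0.22 (adjusted p = 3.89e-16). THY1, a surface glycoprotein of neurons, thymocytes and fibroblasts, had 6.90, 8.99 and 8.98 CPM in UHRF1-AID, 0.516, 0.728 and 0.763 CPM in DNMT1-AID and 0 in WT, a log2 difference of 3.65 ± 0.33 (adjusted p = 1.51e-08). GPX3, a secreted glutathione peroxidase, had 15.1, 20.5 and 15.1 CPM in UHRF1-AID and 1.73, 2.57 and 2.39 CPM in DNMT1-AID, a log2 difference of 2.94 ± 0.26 (adjusted p = 3.03e-09). TFF2, a secreted trefoil peptide of the stomach, had 4.14, 6.57 and 4.62 CPM in UHRF1-AID, 0, 0.728 and 0.356 CPM in DNMT1-AID and 0 in WT, a log2 difference of 3.93 ± 0.47 (adjusted p = 1.31e-06). All 4 genes were separated without overlap, as the rule that chose them required. PCSK1N, an inhibitor of a prohormone convertase, LAT, an adaptor of the T cell receptor, and COMP, a cartilage matrix protein, gave 4.04 ± 0.46, 3.28 ± 0.35 and 3.14 ± 0.34. ADAMTS2, which trims procollagen, differed from these genes in its WT level: it had 7.08, 7.78 and 7.35 CPM in UHRF1-AID, 1.18, 0.942 and 0.102 CPM in DNMT1-AID and 5.40, 6.25 and 4.99 CPM in WT, a log2 difference of 3.20 ± 0.33 (adjusted p = 5.6e-08). Here UHRF1-AID stood somewhat above WT, and DNMT1-AID stood below both.

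**Figure D2:**
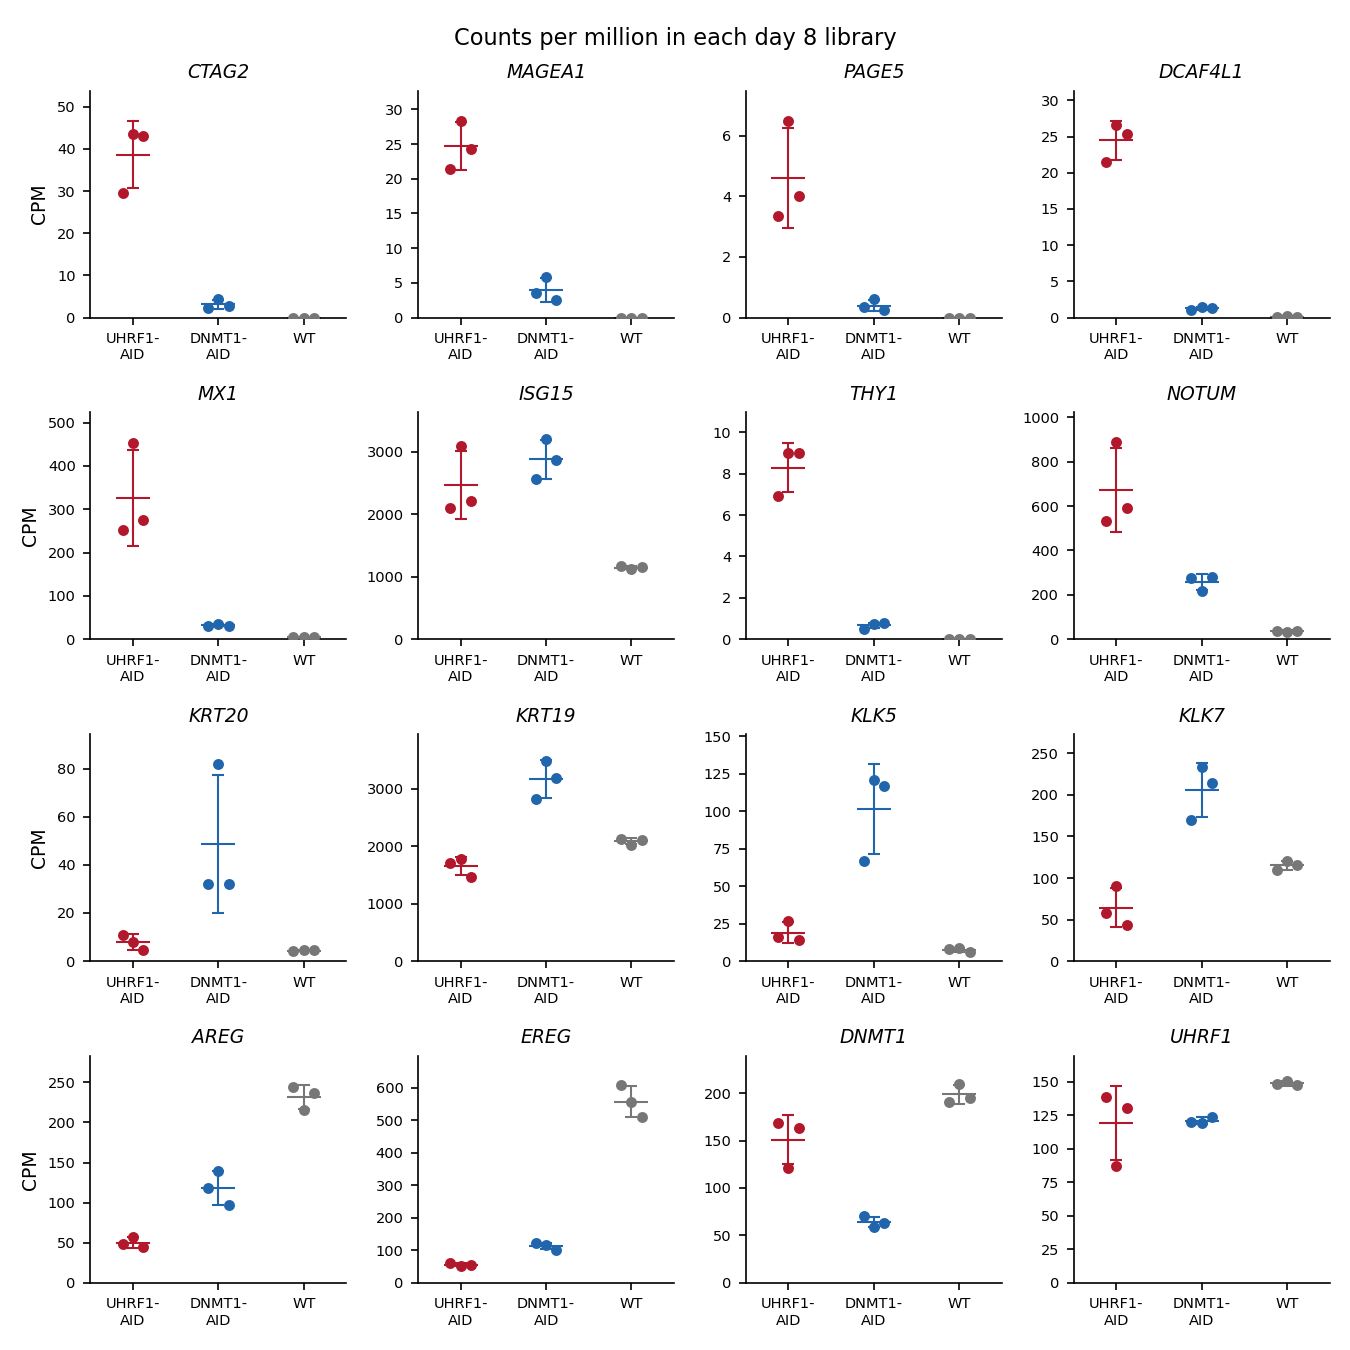
CPM of 16 genes in each day 8 library (points), with the mean and SD of 3 libraries (bars), for UHRF1-AID, DNMT1-AID and WT, each panel with its own axis from 0. CTAG2, MAGEA1 and MX1 were higher and KRT19, KLK5 and AREG lower in every UHRF1-AID library than in every DNMT1-AID library, while ISG15 and UHRF1 overlapped.

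Clustered protocadherins, cell-surface recognition proteins of neurons encoded by arrays of variable exons on chromosome 5, split by cluster. Of 49 tested, 22 rose (44.9%, against 10.0% of all genes) and 0 fell: 15 of 15 PCDHA, 7 of 12 PCDHB and 0 of 22 PCDHG genes. Without replicate 2 of UHRF1-AID 8 rose, without replicate 1 or 2 of DNMT1-AID 8 and 7, and with the 6 libraries alone 6. The PCDHA genes share exons, so their near-equal differences (0.54 to 0.74) count shared reads many times. The PCDHB genes are single-exon genes, and their median difference of 3.59 was the largest of the 3 clusters. The PCDHG genes, which also share exons, lay between 0.27 and 0.37.

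PCDHB10 had 1.91, 2.24 and 1.5 CPM in UHRF1-AID and 0.0911, 0.0856 and 0 CPM in DNMT1-AID, a log2 difference of 4.75 ± 0.82 (adjusted p = 0.00012). PCDHB2 had 1.38, 2.02 and 1.14 CPM in UHRF1-AID, 0.0304, 0.0856 and 0.0509 CPM in DNMT1-AID and 0 in WT, a log2 difference of 4.70 ± 0.89 (adjusted p = 0.000584). Both were close to silence in DNMT1-AID, and at such levels the log2 difference depends on the prior count of the fit. The PCDHB10 promoter window (GRCh38.p14, chromosome 5, 141192103 to 141192402, plus strand, CpGs in capitals) holds 5 CpGs, and it is shown for contrast with the CpG-richer MAGEA windows.
PCDHB10: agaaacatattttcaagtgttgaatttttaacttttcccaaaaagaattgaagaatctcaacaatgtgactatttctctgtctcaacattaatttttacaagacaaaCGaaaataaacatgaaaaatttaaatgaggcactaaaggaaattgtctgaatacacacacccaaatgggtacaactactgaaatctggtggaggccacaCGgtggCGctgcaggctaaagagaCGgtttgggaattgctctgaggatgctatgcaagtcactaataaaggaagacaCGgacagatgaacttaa

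Zinc finger genes on chromosome 19, many of which encode KRAB repressors of transposable elements, lay near the background. Of 167 tested, 20 rose (11.98%) and 6 fell (3.59%), against 10.0% and 8.24% of all genes, and the median was 0.17. The number that rose was 12 without replicate 2 of UHRF1-AID, 10 without replicate 2 of DNMT1-AID and 3 with the 6 libraries alone, and the number that fell was 3 without replicate 2 of UHRF1-AID and 1 without replicate 3 of DNMT1-AID. ZNF17 and ZNF175 rose by 0.87 ± 0.20 and 0.62 ± 0.16. Among regulators of chromatin, MORC3, an ATPase of nuclear bodies, had 21.8, 22.4 and 25.1 CPM in UHRF1-AID, 11.5, 9.89 and 12 CPM in DNMT1-AID and 25.4, 25 and 27.1 CPM in WT, a log2 difference of 1.06 ± 0.10 (adjusted p = 3.03e-09). For MORC3, too, UHRF1-AID lay at or just below WT and DNMT1-AID lay lower, with no overlap between the degron lines. UHRF2, the paralogue of UHRF1, rose by 0.51 ± 0.11.

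Of 27 genes known for promoter methylation in colon cancer, 10 rose (37.04%) and 1 fell (3.7%), with a median of 0.39. Of all genes tested, 10.0% rose and 8.24% fell. UNC5C, a netrin receptor and tumour suppressor, had 3.65, 6.31 and 4.36 CPM in UHRF1-AID and 0.820, 1.37 and 1.12 CPM in DNMT1-AID, a log2 difference of 2.13 ± 0.26 (adjusted p = 6.19e-07). GATA5, a transcription factor of endoderm, and the transmembrane protein TMEFF2 gave 3.06 ± 0.48 and 5.79 ± 0.84. SOCS1, a feedback inhibitor of JAK kinases, was the member that fell, at -0.48 ± 0.14, a call lost without replicate 2 or 3 of UHRF1-AID or replicate 1 or 2 of DNMT1-AID (adjusted p of up to 0.0885). With the 6 libraries alone 5 of the list rose.

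Of 18 mesenchymal genes, 8 rose (44.44%, against 10.0% of all genes) and 0 fell. The median was 0.50, and 5 rose without replicate 1 or 3 of UHRF1-AID or replicate 3 of DNMT1-AID. SPARC, a matrix glycoprotein on both lists, had 48.9, 37.5 and 98.8 CPM in UHRF1-AID, 13.1, 9.42 and 17.1 CPM in DNMT1-AID and 0.0458, 0.0900 and 0.101 CPM in WT, a log2 difference of 2.23 ± 0.38 (adjusted p = 0.000247); with only these 6 libraries in the fit its adjusted p was 0.0515. FN1, fibronectin, had 17.6, 13.7 and 27.9 CPM in UHRF1-AID and 9.11, 7.88 and 6.56 CPM in DNMT1-AID, a log2 difference of 1.32 ± 0.27 (adjusted p = 0.00129). LOXL2, which crosslinks collagen, gave 0.92 ± 0.16. Of 31 collagen genes, 5 rose (16.13%) and 1 fell (3.23%), against 10.0% and 8.24% of all genes. The median was 0.43, but 2 rose without replicate 3 of UHRF1-AID or replicate 2 of DNMT1-AID, and 3 without replicate 3 of DNMT1-AID. Summed fibroblast markers were 30.8 to 37.4 CPM in UHRF1-AID, 22.2 to 24.0 CPM in DNMT1-AID and 19.5 to 23.6 CPM in WT. Nearly all of that was COL1A1, with 29.6 to 36.3 CPM in UHRF1-AID and 21.7 to 23.4 CPM in DNMT1-AID, while PDGFRA was at 0. The part of these markers in the result was not tested.

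Wnt target genes and inhibitors gave 8 of 19 that rose (42.11%) and 3 that fell (15.79%), against 10.0% and 8.24% of all genes. The median was 0.36, and 4 rose without replicate 3 of UHRF1-AID and 5 without replicate 2 of DNMT1-AID. NOTUM, a secreted Wnt deacylase, had 534, 887 and 593 CPM in UHRF1-AID, 276, 218 and 278 CPM in DNMT1-AID and 38.3, 34.8 and 39.1 CPM in WT, a log2 difference of 1.38 ± 0.26 (adjusted p = 0.000663). NKD1, an inhibitor of Dishevelled, had 23.5, 20.2 and 30.7 CPM in UHRF1-AID, 12.2, 9.29 and 11.8 CPM in DNMT1-AID and 10.0, 11.4 and 11.8 CPM in WT, a log2 difference of 1.16 ± 0.15 (adjusted p = 1.9e-06). DKK4, a secreted antagonist of Wnt receptors, had 79.8, 30.7 and 93.2 CPM in UHRF1-AID and 17.9, 11 and 10.2 CPM in DNMT1-AID, a log2 difference of 2.37 ± 0.44 (adjusted p = 0.000705). In each case the highest DNMT1-AID library was below the lowest of UHRF1-AID, though DKK4 ran over a wide range. Its adjusted p was 0.0616 when only these 6 libraries were fitted. The 3 members that fell were CD44, a hyaluronan receptor, at -0.66 ± 0.16, NKD2 at -0.78 ± 0.20 and cyclin D1 (CCND1) at -0.31 ± 0.10, and 1 fell without replicate 2 of DNMT1-AID, where the adjusted p of NKD2 was 0.0863.

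**Figure D3:**
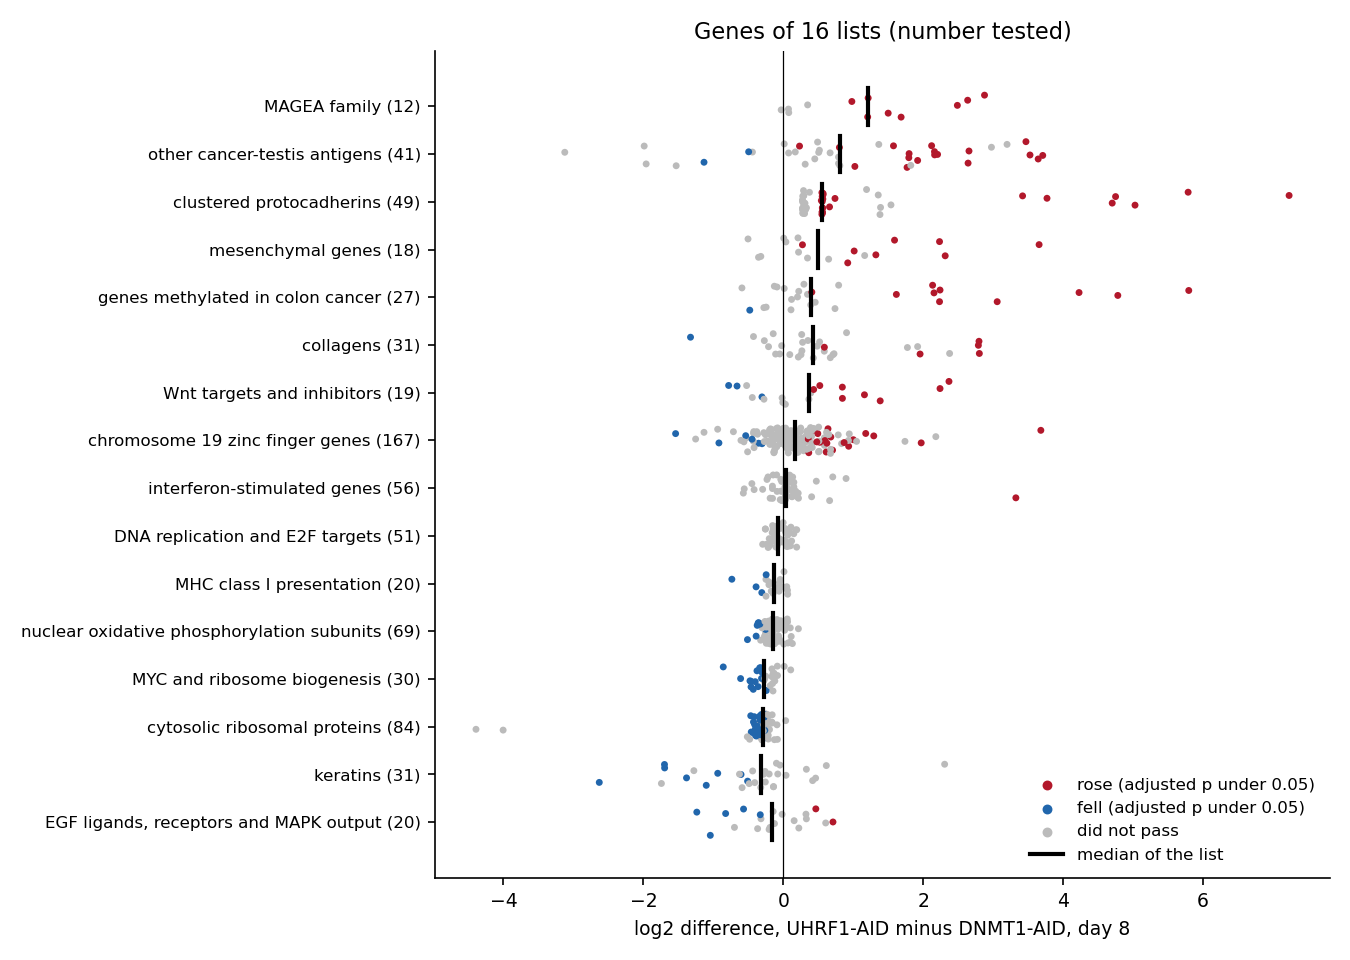
Log2 difference on day 8, UHRF1-AID minus DNMT1-AID, of each gene of 16 lists (points; number tested in brackets), with the median of each list as a black bar. Red genes rose, blue genes fell and grey genes did not pass; MAGEA genes (median 1.21) lie mostly right of 0, interferon-stimulated genes (median 0.03) around 0 with MX1 apart, and keratins (median -0.32) and ribosomal protein genes (median -0.30) mostly left.

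Keratins, the intermediate filaments of epithelia, were lower in UHRF1-AID: of 31 tested, 0 rose and 8 fell (25.81%, against 8.24% of all genes). The median was -0.32. Both lines stood above WT, with list medians of 1.21 in UHRF1-AID and 1.47 in DNMT1-AID. KRT19 had 1709, 1775 and 1471 CPM in UHRF1-AID, 2826, 3484 and 3183 CPM in DNMT1-AID and 2125, 2028 and 2106 CPM in WT, a log2 difference of -0.94 ± 0.11 (adjusted p = 3.22e-07). KRT8 had 2540, 3113 and 3177 CPM in UHRF1-AID and 4128, 4536 and 4765 CPM in DNMT1-AID, a log2 difference of -0.60 ± 0.10 (adjusted p = 4.19e-05). KRT23 had 84.6, 144 and 73.0 CPM in UHRF1-AID and 246, 293 and 249 CPM in DNMT1-AID, a log2 difference of -1.38 ± 0.17 (adjusted p = 1.44e-06). None of these 3 genes overlapped between the lines. Of the epithelial markers outside this family, EPCAM had 282 to 421 CPM in UHRF1-AID and 397 to 472 CPM in DNMT1-AID, and CDH1 had 117 to 191 CPM in UHRF1-AID and 173 to 194 CPM in DNMT1-AID. Their part in the result was not tested.

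KRT20, a keratin of differentiated enterocytes, had 11, 8.00 and 4.62 CPM in UHRF1-AID, 32.1, 81.9 and 31.9 CPM in DNMT1-AID and 4.03, 4.41 and 4.62 CPM in WT, a log2 difference of -2.63 ± 0.41 (adjusted p = 8.85e-05). DNMT1-AID library 2 stood apart at the top. EPN3, an epsin of gastric and wounded epithelium, had 7.82, 23.8 and 16.3 CPM in UHRF1-AID and 47.4, 55.3 and 49.1 CPM in DNMT1-AID, a log2 difference of -1.66 ± 0.40 (adjusted p = 0.00509). Although the groups were separate in both genes, a fit of the 6 libraries alone lost the calls, with adjusted p values of 0.0578 for KRT20 and 0.0533 for EPN3. Across 26 intestinal epithelial genes 5 rose (19.23%) and 7 fell (26.92%), against 10.0% and 8.24% of all genes, so they did not move as 1 group. The trefoil peptides TFF2 and TFF3 were higher, by 3.93 ± 0.47 and 2.41 ± 0.41, and the transcription factor KLF4 lower, at -0.93 ± 0.16.

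Some kallikreins were also lower. These secreted serine proteases lie in 1 cluster on chromosome 19 (50819146 to 51084245), and the family was singled out after its values were seen. Of 12 tested, 0 rose and 5 fell, all over 2-fold. KLK5, which activates other kallikreins in skin, had 15.9, 26.9 and 14.1 CPM in UHRF1-AID, 67.0, 121 and 117 CPM in DNMT1-AID and 7.74, 8.50 and 5.94 CPM in WT, a log2 difference of -2.42 ± 0.30 (adjusted p = 3.49e-06). KLK7, a chymotrypsin-like enzyme that cleaves corneodesmosomes, had 58.3, 90.7 and 44 CPM in UHRF1-AID, 170.1, 234 and 214 CPM in DNMT1-AID and 109.9, 119.9 and 116 CPM in WT, a log2 difference of -1.68 ± 0.16 (adjusted p = 5.39e-08). The order thus differed between both genes: WT was lowest for KLK5 and lay between the degron lines for KLK7. KLK6 had 31.2, 50.5 and 30.3 CPM in UHRF1-AID and 79.1, 131 and 140.3 CPM in DNMT1-AID, a log2 difference of -1.65 ± 0.24 (adjusted p = 3.24e-05). KLK10 had 26.2, 48.5 and 20.2 CPM in UHRF1-AID and 87.3, 86.0 and 93.1 CPM in DNMT1-AID, a log2 difference of -1.49 ± 0.23 (adjusted p = 6.84e-05). KLK8, at -1.19 ± 0.16, was the fifth.

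**Figure D4:**
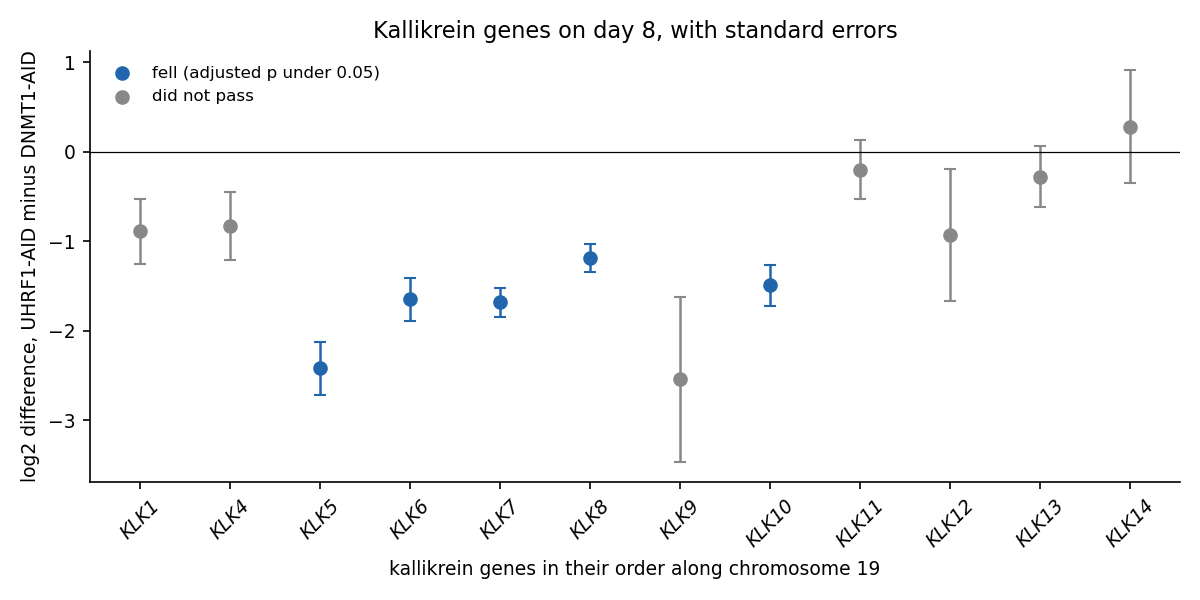
Log2 difference on day 8, UHRF1-AID minus DNMT1-AID, with its standard error, of the 12 kallikrein genes tested, in their order along chromosome 19. The 5 blue genes fell (KLK5 lowest at -2.42), and the 7 grey genes did not pass the test.

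The promoters of KRT20 (GRCh38.p14, chromosome 17, 40885193 to 40885492, minus strand) and KLK5 (chromosome 19, 50952989 to 50953288, minus strand) are printed as examples of genes lower in UHRF1-AID. With 2 and 7 CpGs, in capitals, both are CpG-poor. The 18 windows of the 10 kallikrein genes in the table had a median of 8 CpGs.
KRT20: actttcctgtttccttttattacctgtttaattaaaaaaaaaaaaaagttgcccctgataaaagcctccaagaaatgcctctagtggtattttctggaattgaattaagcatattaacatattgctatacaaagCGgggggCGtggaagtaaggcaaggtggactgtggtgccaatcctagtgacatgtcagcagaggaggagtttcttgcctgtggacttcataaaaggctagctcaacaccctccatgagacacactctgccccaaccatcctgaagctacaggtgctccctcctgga
KLK5: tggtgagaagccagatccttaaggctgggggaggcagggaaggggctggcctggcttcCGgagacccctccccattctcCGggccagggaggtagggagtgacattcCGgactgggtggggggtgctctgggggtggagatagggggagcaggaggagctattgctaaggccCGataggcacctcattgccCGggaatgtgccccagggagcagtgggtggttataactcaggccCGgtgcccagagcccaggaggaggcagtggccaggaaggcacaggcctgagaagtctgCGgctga

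Further genes were chosen for the lowest differences. CSTA, a cysteine protease inhibitor of the cornified envelope, had 1.52, 1.94 and 0.651 CPM in UHRF1-AID and 7.23, 4.07 and 3.82 CPM in DNMT1-AID, a log2 difference of -1.91 ± 0.45 (adjusted p = 0.0037). PSCA, a surface antigen of prostate and stomach, had 1.70, 2.24 and 1.33 CPM in UHRF1-AID and 5.95, 6.42 and 5.65 CPM in DNMT1-AID, a log2 difference of -1.77 ± 0.27 (adjusted p = 2.54e-05). ACSL5, an acyl-CoA synthetase of the intestine, had 55.1, 77.6 and 48.9 CPM in UHRF1-AID, 219.5, 238 and 142 CPM in DNMT1-AID and 135, 131 and 127 CPM in WT, a log2 difference of -1.73 ± 0.22 (adjusted p = 6.82e-06). All 3 separated the lines, as the rule that chose them required. ACSL5 lay below WT in UHRF1-AID and above WT in DNMT1-AID. KRT13, the mucin MUC20 and the secretogranin SCG2 gave -1.70 ± 0.30, -1.78 ± 0.32 and -1.70 ± 0.33. GPBAR1, a bile acid receptor, had the largest negative difference, -6.08 ± 1.87 (adjusted p = 0.0252), but it rested on 1 library. Its levels were 0.106, 0.110 and 0.0325 CPM in UHRF1-AID and 0.121, 0.171 and 17.7 CPM in DNMT1-AID, and without replicate 3 of DNMT1-AID its adjusted p was 0.865. The call was also lost without any 1 UHRF1-AID library and with DESeq2.

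Over the list of 20 EGF ligands, receptors and MAPK output genes, 2 rose and 5 fell, with a median of -0.17. Of the 6 EGF receptor ligands tested, AREG, EREG and BTC fell. AREG, amphiregulin, had 48.8, 57.2 and 44.5 CPM in UHRF1-AID, 118, 139 and 97.0 CPM in DNMT1-AID and 245, 215 and 236 CPM in WT, a log2 difference of -1.24 ± 0.15 (adjusted p = 1.01e-06). EREG, epiregulin, had 59.8, 50.9 and 54.3 CPM in UHRF1-AID, 122, 116 and 102 CPM in DNMT1-AID and 608, 556 and 511 CPM in WT, a log2 difference of -1.04 ± 0.13 (adjusted p = 1.02e-06). Both ligands were below WT in each degron line, and lowest in UHRF1-AID. Betacellulin (BTC), another ligand, had 7.12, 8.40 and 7.12 CPM in UHRF1-AID and 13.4, 13.2 and 13.5 CPM in DNMT1-AID, a log2 difference of -0.82 ± 0.17 (adjusted p = 0.000705). The ligands TGFA, HBEGF and EGF did not pass the test, at -0.19 ± 0.09, 0.32 ± 0.16 and -0.20 ± 0.48. PHLDA1, which responds to MAPK signals, fell too, at -0.57 ± 0.12. The 2 that rose, the ERK phosphatase DUSP6 and SPRY4, both lost their calls without replicate 1 or 3 of UHRF1-AID or replicate 2 of DNMT1-AID, and SPRY4 also without replicate 3 of DNMT1-AID.

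Genes of protein synthesis were lower by small amounts. Of 84 cytosolic ribosomal protein genes, 0 rose and 38 fell (45.24%, against 8.24% of all genes), with a median of -0.30. The count was 14, 48 and 19 without replicates 1, 2 and 3 of UHRF1-AID, and 57, 6 and 18 without replicates 1, 2 and 3 of DNMT1-AID. It was 17 with library size only and 40 with DESeq2. The 6 libraries alone gave 7, and with a block for replicate number 64. RPL12 and RPS19 gave -0.37 ± 0.09 and -0.40 ± 0.10. These genes took 5.22% to 5.67% of counts in UHRF1-AID and 5.78% to 6.88% in DNMT1-AID. Of 30 MYC and ribosome biogenesis genes, 0 rose and 15 fell, with a median of -0.27, among them RRP9, a component of the U3 particle, at -0.48 ± 0.09. Without replicate 3 of UHRF1-AID 8 fell, and without replicate 2 of DNMT1-AID 9, against 8 with library size only and 9 with the 6 libraries alone. In contrast, 0 of 51 DNA replication and E2F genes rose and 0 fell in edgeR, with a median of -0.07 and 6 negative at an unadjusted p under 0.05, and DESeq2 called 0. Without replicate 1 of UHRF1-AID 2 of them fell, and without replicate 3 of UHRF1-AID or replicate 1 of DNMT1-AID 1 fell. Mitotic genes gave 2 that rose and 2 that fell of 45 (4.44% each), against 10.0% and 8.24% of all genes. Leaving out any library but replicate 1 of DNMT1-AID moved 1 or both of these counts, to 0 to 2 that rose and 1 to 4 that fell. With library size only the medians of the replication and mitotic lists were positive, at 0.04 and 0.08, as they were without replicate 2 of UHRF1-AID, at 0.01 and 0.08. Both proliferation lists lay below WT in each line: the median of the replication genes against WT was -0.68 in UHRF1-AID and -0.67 in DNMT1-AID. For mitotic genes it was -0.78 in UHRF1-AID and -0.74 in DNMT1-AID. Ribosomal protein genes had a median against WT of 0.08 in UHRF1-AID and 0.385 in DNMT1-AID. The median of the MYC and ribosome biogenesis genes was -0.27 in UHRF1-AID and 0.10 in DNMT1-AID.

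The line that lost both proteins is set beside these genes as a description. CTAG2 had 53.5, 80.7 and 71.8 CPM and MX1 776, 969 and 737 CPM in UHRF1-AID/DNMT1-AID, in each library above the highest UHRF1-AID library. KLK5 had 47.9, 56.8 and 43.5 CPM there, between the libraries of UHRF1-AID and those of DNMT1-AID. EREG had 16.4, 10.6 and 21.3 CPM, below every library of either single degron line.

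The contrast between the lines was larger for some groups on day 8 than on day 2 and smaller for others. Libraries of the 3 days are separate samples. The difference between UHRF1-AID and DNMT1-AID was more positive on day 8 than on day 2 by over 2-fold in 351 genes (2.28%) and more negative in 53 (0.344%). Between days 6 and 8 edgeR called 0 genes in either direction, with 613 at an unadjusted p under 0.05, and DESeq2 also called 0, with 660. Of the 505 genes higher on day 8, 190 were called higher on day 2 (37.62% of the 505 and 53.22% of the 357 on day 2) and 267 on day 6 (52.87%, and 74.79% of the 357 on day 6). Of the 106 lower genes, 17 were called lower on day 2 (16.04%, and 4.43% of the 384 on day 2) and 39 on day 6 (36.79%, and 79.59% of the 49 on day 6). The share of all genes called was 2.32% higher and 2.49% lower on day 2, and 2.32% higher and 0.318% lower on day 6.

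MX1 opened its gap over time, by 2.47 ± 0.68 (adjusted p = 0.0245) between days 2 and 8. NKD1 did the same, by 1.08 ± 0.23 (adjusted p = 0.00232). COL1A1, the main fibrillar collagen, changed direction: it was -1.04 ± 0.24 on day 2 and 0.59 ± 0.17 on day 8, although the day 8 call was lost without replicate 2 or 3 of UHRF1-AID or replicate 2 of DNMT1-AID. KLK5 moved the other way, at -0.43 ± 0.33 on day 2 and -2.42 ± 0.30 on day 8, a change of -1.99 ± 0.44 (adjusted p = 0.00404). KRT19, at -0.94 ± 0.11 by day 8, had been at -0.34 ± 0.11 on day 2 and at -0.64 ± 0.11 on day 6. Of 31 keratins, 2 (KRT19 and KRT23) differed more negatively on day 8 than on day 2 at an adjusted p under 0.05. Of 26 intestinal epithelial genes 1 did, again KRT19. Over all 15415 genes tested, 326 did so, and 859 differed more positively.

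Germline genes were already apart early. MAGEA1 differed by 4.84 ± 0.44 on day 2, by 2.72 ± 0.28 on day 6 and on day 8 by 2.63 ± 0.27. Its mean in UHRF1-AID was 7.98 ± 0.243 CPM (SD, n = 3) on day 2 and 24.7 ± 3.45 CPM (SD, n = 3) on day 8. The mean in DNMT1-AID was 0.278 ± 0.341 CPM (SD, n = 3) on day 2 and 3.96 ± 1.73 CPM (SD, n = 3) on day 8. CTAG2 stood at 5.57 ± 0.46, 3.60 ± 0.34 and 3.64 ± 0.30 on the 3 days. For 5 of the 12 MAGEA genes the difference was smaller on day 8 than on day 2 at an adjusted p under 0.05. Over all 15415 genes tested, the difference was smaller or more negative in 326. TKTL1 was higher in UHRF1-AID on day 2, by 1.92 ± 0.46, and stood at -1.13 ± 0.38 on day 8.

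**Figure D5:**
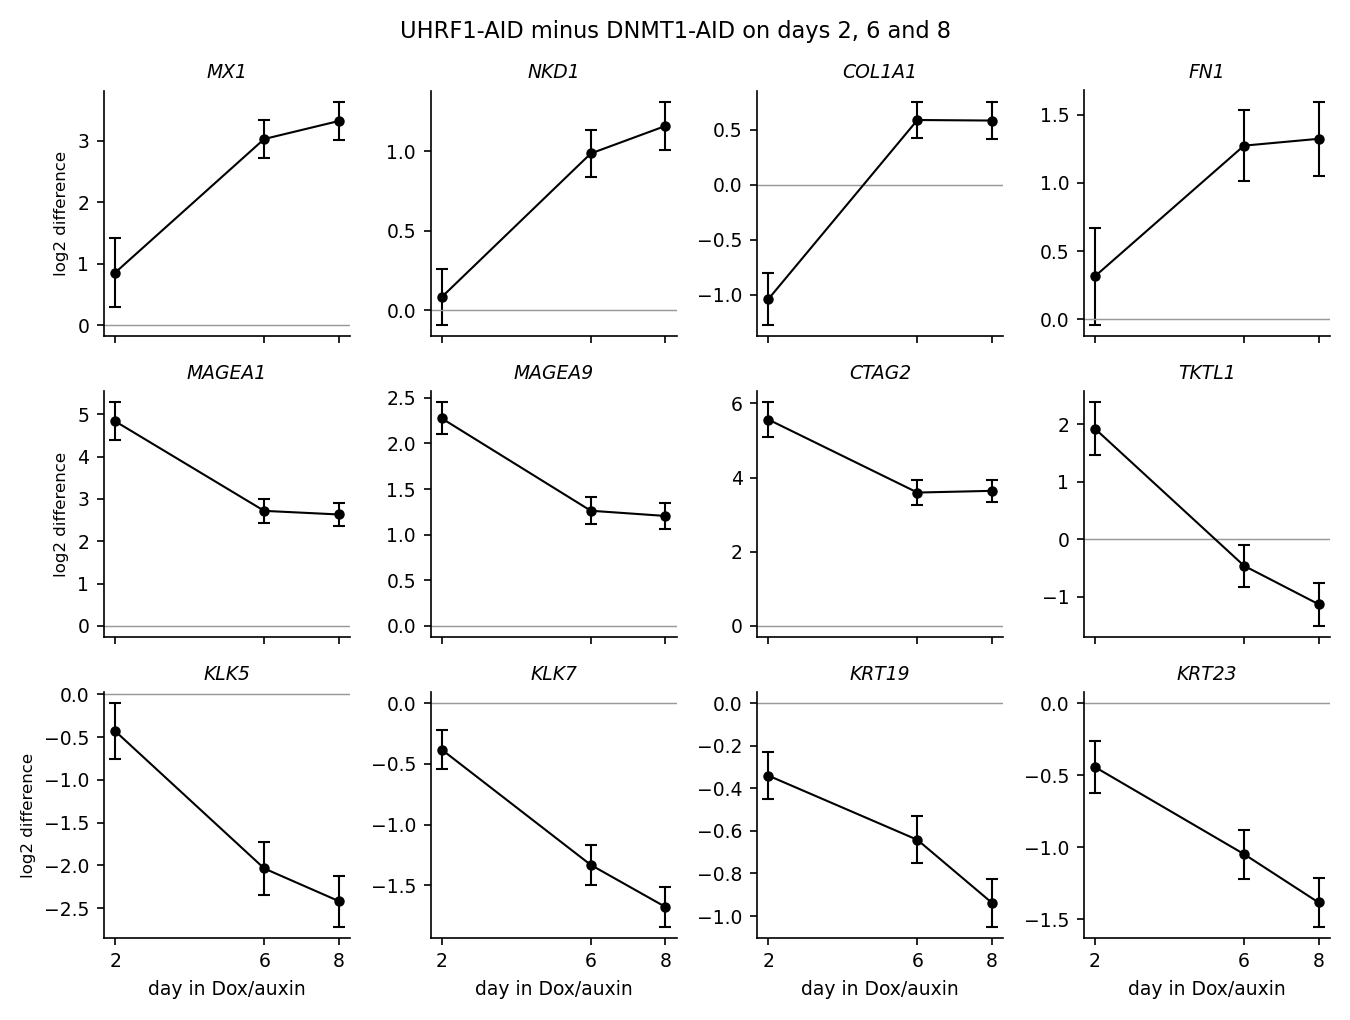
Log2 difference, UHRF1-AID minus DNMT1-AID, on days 2, 6 and 8 of Dox/Auxin for 12 genes (points, with standard errors), each panel with its own axis and a grey line at 0 where it is in range. MX1 and NKD1 grew, MAGEA1, MAGEA9 and CTAG2 stayed above 0 but were lower on days 6 and 8 than on day 2, and KLK5, KLK7, KRT19 and KRT23 moved further below 0.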

How the data were processed

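Poly(A)-selected RNA of HCT116 lines was sequenced in paired-end reads, 12 groups of 3 libraries. The authors trimmed reads with Trim Galore, aligned them to hg38 with STAR, and counted them per gene with featureCounts; the deposited files hold these raw counts per Ensembl gene. The annotation release, the strand setting and the handling of reads with several matches are not given in the sources used here. Antisense, overlapping and near-identical genes are therefore uncertain.

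Of 60648 IDs, 60462 matched GENCODE 44 by ID, and 0 entries named no gene. Totals ran from 21074536 to 37175136 reads per library. No libraries held identical counts. Protein-coding genes (19942) were filtered with filterByExpr (minimum count 10, over 12 groups), which left 15415, given TMM factors and modelled in edgeR 4.0.16 with 36 libraries and 1 mean per group (R 4.3.3, robust quasi-likelihood, 24 residual degrees of freedom, common dispersion 0.0115). Tests were two-sided, with Benjamini-Hochberg adjustment over the genes tested. A call needed an adjusted p under 0.05 and a log2 difference beyond 1. The fit was tested on simulated data. Differences between days were interaction contrasts.

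Alternatives were DESeq2 1.42.0, other scaling factors, other filters, all annotated genes, a correction for length and GC content, the 6 libraries alone with and without a replicate block, and leaving out each library. Genes named were UHRF1 and DNMT1; the 15 highest and 12 lowest log2 differences among called genes with non-overlapping libraries and a mean of at least 5 CPM in the higher group; and from each list, by p-value, up to 4 genes that passed in the direction of its median and up to 2 in the other. Some genes that this rule named are not reported here. Named outside this rule, after their values were seen, were the kallikreins, LINC02972, LINC00958, MIR31HG, markers, and the genes given as examples of no difference (ISG15, IFIT1, MX2) or as further members of their list (MAGEA4, MAGEA6, MAGEA12, CCND1, TGFA, HBEGF, EGF). The comparison, the 44 gene lists and the rule were chosen with earlier results of these data known. Promoter windows came from RefSeq tables of GRCh38.p14.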

Additional observations from a re-analysis of the deposited data

Results flagged for a closer look

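The difference between UHRF1-AID and DNMT1-AID was compared between days 8 and 2 by an interaction contrast in edgeR. Of the genes reported here, 27 differed at an adjusted p under 0.05. Among all 15415 genes tested, 859 had a more positive and 326 a more negative difference on day 8. Values are the day 8 log2 difference minus that of day 2, and no explanation was weighed. A more positive value is not always a wider gap: COL1A1 changed direction, and ZNF296 was lower in UHRF1-AID on day 8. The difference was more positive on day 8 for PCDHB9 (5.51), MX1 (2.47), COL1A1 (1.63), NKD1 (1.08), ZNF17 (0.94), ZNF296 (0.88), LOXL2 (0.75), SPRY4 (0.70), ATP6V0D1 (0.65) and UHRF2 (0.62).

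It was smaller, or more negative, for germline genes: TKTL1 (-3.06), MAGEA1 (-2.20), MAGEA9 (-1.07), its near-identical copy MAGEA9B (-0.95), MAGEA11 (-0.88) and PLD6 (-0.60). For kallikreins, keratins and PSCA the values were -1.99 for KLK5, -1.39 for PSCA, -1.30 for KLK7, -0.94 for KRT23 and -0.60 for KRT19. Other values were -1.16 for CYP1B1, -0.61 for MBD2, -0.60 for BTG2, -0.47 for RRP9, -0.44 for RPL30 and -0.43 for ATF4.

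In a fit of all annotated genes, 167 of 7050 non-coding and pseudogene IDs had a higher day 8 level in UHRF1-AID than in DNMT1-AID. For 61 it was lower. Over all 22454 genes of that fit, 628 were higher and 162 lower.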

How the results depend on the processing

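The 505 higher and 106 lower genes were 533 and 108 with DESeq2 (494 and 102 shared), 510 and 104 with median-of-ratios scaling, 482 and 99 without a filter, and 521 and 102 after correction for length and GC content. Library size only gave 625 and 84, moved the median of all genes by 0.105 and took the higher share of calls to 88.15%, against 82.65%. All annotated genes gave 628 and 162. The 6 libraries alone gave 256 higher and 67 lower, and leaving out 1 library gave 372 to 498 and 70 to 151. The difference between the lines was more positive on day 8 than on day 2 in 351 genes. This count was 447 with DESeq2, 471 with all annotated genes and 307 after correction for length and GC content. The compared lines alone gave 167, and leaving out 1 library 323 to 397. The difference was more negative in 53 genes (80 with DESeq2, 82 with all annotated genes, 70 after that correction). The compared lines alone gave 26 such genes. Leaving out 1 library gave 44 to 85, with 85 without replicate 2 of UHRF1-AID. The cause of these shifts was not tested. Between days 8 and 6 the count stayed at 0 under every alternative. Of the 158 named genes that passed, 85 kept their call under all 14 alternatives, 3 more under the 12 in which they were tested, 70 lost it under 1 or more, and 0 reversed.

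The labels number replicates alike in each group, but same-numbered libraries did not deviate together (correlations of 0.07, 0.13 and -0.02), and not every library correlated best with its own number. The replicate block was fitted on the compared libraries only. It gave 314 higher and 81 lower genes, against 256 and 67 in the same fit without it. Between days 2 and 8 the difference became more positive in 134 genes and more negative in 20, against 167 and 26. Of the named genes, 22 lost their call with the block and 58 in the fit without it. Depth limits the weakly expressed genes most: the 505 genes had a median of 0.377 CPM in DNMT1-AID.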

Other observations

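Of 593 X-linked genes tested, 57 (9.61%) were higher in UHRF1-AID, against 448 of 14809 autosomal genes (3.03%). The highest shares of single autosomes were 6.67% (9 of 135) on chromosome 21 and 4.58% (31 of 677) on chromosome 5. With the MAGEA and other cancer-testis lists left aside, 34 of 542 X-linked genes remained (6.27%). These shares are descriptions without a test.

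Among long non-coding RNAs (4594 tested), 108 were higher in UHRF1-AID and 43 lower, against 628 and 162 of all 22454 genes in that fit. LINC02972 stood at 5.2, 4.92 and 5.40 CPM in UHRF1-AID and 0.304, 1.33 and 1.17 CPM in DNMT1-AID, a log2 difference of 2.54. LINC00958 and MIR31HG gave 1.24 and 1.05. Of the 167 higher and 61 lower non-coding IDs, 90 and 36 overlap a protein-coding gene. Of them, 31 and 17 overlap one called in the same direction, such as ENSG00000228318 inside MX1. How many of all non-coding IDs tested overlap such genes was not counted. The strand setting of the counting is not given in the sources used here, so reads of such pairs cannot be told apart.

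Of 9 metallothionein genes, which bind zinc and copper, 0 rose and 2 fell (22.22%, against 8.24% of all genes), MT1E (-0.76) and MT2A (-0.50). Of 7 APOBEC3 cytidine deaminases, 0 rose and 2 fell (28.57%), APOBEC3H (-1.29) and APOBEC3C (-0.42). The number that fell was 0 without replicate 3 of DNMT1-AID and 1 without replicate 1 of DNMT1-AID or any 1 UHRF1-AID library. Of 69 nuclear subunits of oxidative phosphorylation, 0 rose and 7 fell (10.14%, against 8.24% of all genes), with a median of -0.14. The count ranged from 1, without replicate 1 or 3 of UHRF1-AID or replicate 2 of DNMT1-AID, to 18 without replicate 2 of UHRF1-AID, and it was 16 and 4 without replicate 1 and 3 of DNMT1-AID. Of 13 mitochondrially encoded proteins, 0 rose and 0 fell in edgeR and DESeq2, with 0 at an unadjusted p under 0.05. CYP1B1, a target of the aryl hydrocarbon receptor, fell, at -0.82, while the call of CYP1A1, at 1.01, was lost without replicate 2 of UHRF1-AID or replicate 1 or 2 of DNMT1-AID.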
